A study of Mus musculus with 6 samples.

Results

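Of the 8973 genes that the arrays name, 10 are described here: the simple-epithelium keratins Krt7, Krt8, Krt18 and Krt19, the junction genes Cldn4, Cldn6, Tjp1 and Cdh3, the sodium pump subunit Atp1b1 and galectin 3 (Lgals3). They were selected from genes known in trophectoderm, with the female over male log ratios of all 6 arrays already in view, so those ratios are given as a description and carry no test. All 10 were measured, by 15 probes, and none was lost to a filter. The series compared RNA of female and male mouse blastocysts (E3.5, whole embryo) on 2-colour arrays. Pools of over 200 embryos of each sex were made in 3 independent preparations, and each pair of pools was hybridised in both dye orientations. The orientations form 2 groups of 3 arrays, the first with female RNA in Cy5 and male RNA in Cy3, the second with the dyes exchanged. All embryos came from B6C3F1 dams of 8 weeks, given 5 IU of PMS and 48 h later 5 IU of hCG and mated with XGFPY males. They were taken at the 4-cell stage 55 h after hCG and spent 38 h in kSOM at 37 °C under 5% CO2, without further treatment, and all RNA was extracted with 1 µg of yeast tRNA. A pool mixes trophectoderm with inner cells, so fewer cells of a type and less RNA per cell cannot be told apart.

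The trophectoderm is the outer cell layer of the blastocyst and the first epithelium of the embryo. Its cells hold filaments of paired type II keratins (Krt7, Krt8) and type I keratins (Krt18, Krt19), are sealed by tight junctions and tied by cadherins, and pump sodium inward so that water follows and the blastocoel fills. Keratins of the simple-epithelium kind and galectin 3, a protein that binds β-galactoside sugars, are commonly used to mark this layer.

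Values below are log2 ratios of female over male, taken from deposited log10 ratios read as Cy5 over Cy3, each error being the SD of the 3 preparations. The sex labels of the library pair labelled preparation 3 went against Xist, which is made from the inactive X chromosome, and Eif2s3y, a Y-linked gene. Averaged over its 5 probes, Xist stood at 2.25, 2.09 and -1.55 and Eif2s3y at -1.75, -1.76 and 1.93 in preparations 1, 2 and 3. Means of the 10 genes are therefore given as labelled, with the sign of the preparation labelled 3 turned ("preparation 3 turned"), and without it. Those of other genes are given with preparation 3 turned, and as labelled where stated. The signal of each channel was not analysed here, so whether a gene was well above background, and the level of trophectoderm markers in the pools, is unknown.

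Preparations 1 and 2 had lower ratios of the type II keratins in RNA labelled female, and higher ratios were found in the preparation labelled 3. The ratio of Krt7 was -0.37 and -0.22 on the 2 arrays of preparation 1, at -0.46 and -0.30 on those of preparation 2, and at 0.32 and 0.37 on those of the preparation labelled 3. Its arrays therefore lay together within each preparation, with no overlap between the first 2 preparations and the last. The mean was -0.34 ± 0.045 with preparation 3 turned (1.27-fold lower in female RNA), -0.34 without preparation 3, and -0.11 ± 0.40 as labelled. Krt8, which pairs with Krt18 in the first filaments of the embryo, had smaller ratios. Preparation 1 gave -0.27 and 0.070, preparation 2 gave -0.20 and -0.061, and the preparation labelled 3 gave 0.11 and 0.094. Averaged over 2 probes, the preparation values lay close together once preparation 3 was turned (-0.11 ± 0.018), while the 2 arrays of preparation 1 lay on either side of 0. The mean was -0.11 without preparation 3 and -0.043 ± 0.12 as labelled. The small SD does not hold for either probe. Preparation 3, once turned, stood at 0.043 on probe 1 and -0.24 on probe 2, with SDs over preparations of 0.11 and 0.093.

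The type I keratins did not follow their type II partners. Krt18 stood at -0.044 and 0.84 (preparation 1), -0.0020 and 0.27 (preparation 2), and -0.69 and 0.070 (preparation labelled 3), the array with female RNA in Cy5 first in each case. In preparations 1 and 2 the value near 0 came from the array with female RNA in Cy5 and the larger one from the array with female RNA in Cy3, and in the preparation labelled 3 the reverse held. Averaged within preparations the ratios were 0.40, 0.13 and -0.31, with a mean of 0.28 ± 0.14 with preparation 3 turned (1.21-fold higher in female RNA), 0.27 without preparation 3 and 0.075 ± 0.36 as labelled. Within the same preparations the ratio of Krt18 exceeded that of Krt8 by 0.50 and 0.26, and lay 0.41 below it in the preparation labelled 3 (difference -0.41). Krt19, which marks simple epithelia without a fixed type II partner, had no common direction. Its preparation ratios were 0.36, -0.33 and -0.20, with a mean of 0.074 ± 0.36 with preparation 3 turned, 0.011 without preparation 3 and -0.059 ± 0.37 as labelled.

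**Figure D1:**
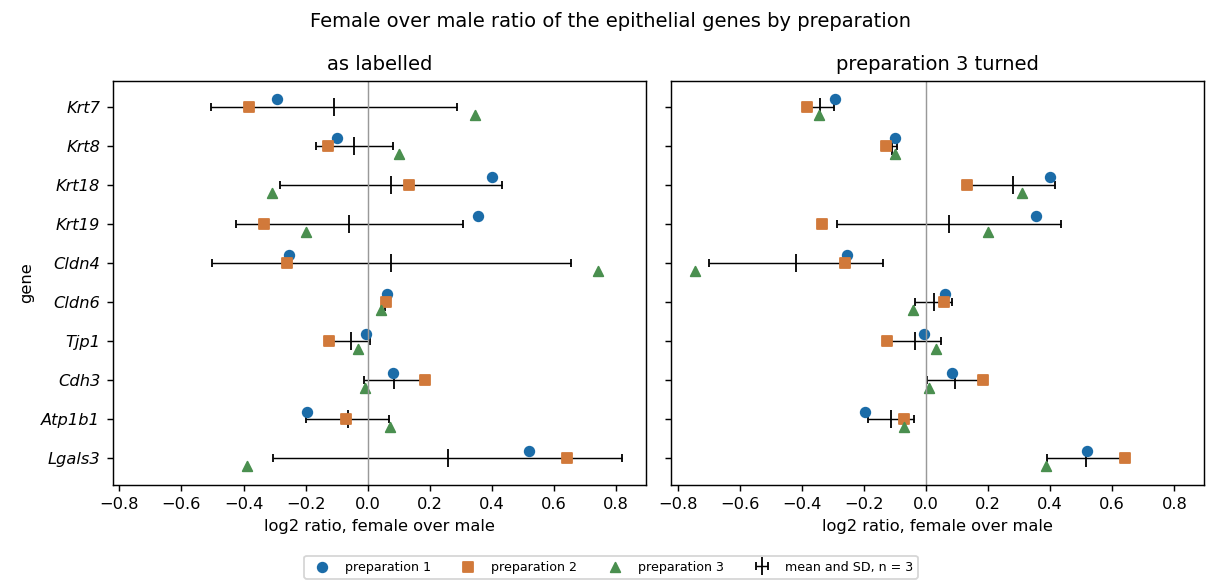
Each row is a gene, and the horizontal axis is the log2 ratio of female over male RNA; circles, squares and triangles are preparations 1, 2 and 3, each the mean of 2 arrays, and the bar is the mean and SD of the 3. With the labels kept (left) the triangle of Krt7, Krt8, Krt18, Cldn4, Cdh3, Atp1b1 and Lgals3 lies across 0 from the other symbols, for Cdh3 only just (-0.0095). With preparation 3 turned (right) it joins them, while Krt19, Cldn6 and Tjp1 straddle 0.

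The junction genes differed among themselves. Cldn4, a claudin of tight junction strands, stood at -0.68 and 0.17 (preparation 1), -0.28 and -0.24 (preparation 2), and 0.63 and 0.86 (preparation labelled 3). The preparation ratios were -0.25, -0.26 and 0.74, so the preparation labelled 3 had the largest size and decided much of the mean: -0.42 ± 0.28 with preparation 3 turned, -0.26 without preparation 3 and 0.076 ± 0.58 as labelled. Cldn6, a claudin of early embryonic epithelia, stood at 0.061, 0.058 and 0.043 as labelled (mean 0.054 ± 0.0096). This small SD hides arrays that ranged from -0.53 to 0.61, negative on the 3 with female RNA in Cy5 and positive on the others, and the mean was 0.025 ± 0.059 with preparation 3 turned and 0.060 without preparation 3. Tjp1, which encodes the scaffold protein ZO-1 under the tight junction, stood at -0.0070, -0.13 and -0.031 as labelled (mean -0.054 ± 0.063, and -0.034 ± 0.082 with preparation 3 turned and -0.066 without preparation 3). Cdh3, P-cadherin of adherens junctions, stood at 0.082, 0.19 and -0.0095, with a mean of 0.092 ± 0.088 with preparation 3 turned, 0.13 without preparation 3 and 0.086 ± 0.097 as labelled. For Tjp1, Cldn6 and Cdh3 the ratios were thus within 0.19 of 0 in every preparation. For Tjp1 this holds for the mean of 3 probes, of which probe 3 stood at -0.56 in preparation 2 and -0.43 in the preparation labelled 3.

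Atp1b1, the β subunit that carries the sodium pump to the membrane, was slightly lower in the RNA labelled female of preparations 1 and 2. Its preparation ratios were -0.20, -0.069 and 0.071, with a mean of -0.11 ± 0.073 with preparation 3 turned, -0.13 without preparation 3 and -0.065 ± 0.13 as labelled.

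Lgals3 had the largest ratio of the 10 genes on any single array and in the mean with preparation 3 turned. It stood at 1.04 and -0.0042 (preparation 1), 1.83 and -0.55 (preparation 2), and 0.072 and -0.85 (preparation labelled 3), female RNA in Cy5 first. All 3 arrays of 1 orientation were thus above 0 and all 3 of the other below it. The preparation ratios were 0.52, 0.64 and -0.39, with a mean of 0.52 ± 0.13 with preparation 3 turned (1.43-fold higher in female RNA), 0.58 without preparation 3 and 0.26 ± 0.56 as labelled. Among all named genes, 0.713% had a mean of larger size with preparation 3 turned, against 1.56% for Cldn4, 2.75% for Krt7, 4.79% for Krt18 and 29% or more for the other members. As labelled, 4.15% had a mean of larger size than Lgals3, against 20.7% for Krt7, 28.3% for Cdh3, 32.7% for Cldn4 and 33.4% for Krt18, so the order of the others depended on preparation 3.

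Promoter windows were read for the members with the largest ratios and for Krt8, the partner of Krt18. RefSeq windows of build GRCm38.p6 matched 8 of the 10 genes by symbol, and the 250 bases before the annotated start are printed 5′ to 3′ along the gene. Capitals mark matches, on either strand, to 5 short motifs. The motif for TEAD factors was searched as GGAATG. That for AP-1 was searched as TGANTCA. A GC box was searched as GGGCGG, and the AP-2 motif as GCCNNNGGC. The TATA box was searched as TATAAA. Krt7 lies at chr15:101412153-101412402 (plus strand), Krt8 at chr15:102004343-102004592 (minus strand), Krt18 at chr15:102027966-102028215 (plus strand), Cldn4 at chr5:134946935-134947184 (minus strand) and Lgals3 at chr14:47373610-47373859 (plus strand).
Krt7: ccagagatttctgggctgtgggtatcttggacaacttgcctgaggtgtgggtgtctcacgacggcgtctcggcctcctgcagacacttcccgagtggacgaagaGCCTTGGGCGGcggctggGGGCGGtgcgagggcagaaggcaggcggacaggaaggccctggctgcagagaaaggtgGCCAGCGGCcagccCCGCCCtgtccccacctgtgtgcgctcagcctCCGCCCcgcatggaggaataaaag
Krt8: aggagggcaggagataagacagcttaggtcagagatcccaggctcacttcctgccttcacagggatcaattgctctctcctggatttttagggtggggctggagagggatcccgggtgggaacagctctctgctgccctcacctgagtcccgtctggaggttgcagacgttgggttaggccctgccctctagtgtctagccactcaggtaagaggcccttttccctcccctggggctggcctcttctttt
Krt18: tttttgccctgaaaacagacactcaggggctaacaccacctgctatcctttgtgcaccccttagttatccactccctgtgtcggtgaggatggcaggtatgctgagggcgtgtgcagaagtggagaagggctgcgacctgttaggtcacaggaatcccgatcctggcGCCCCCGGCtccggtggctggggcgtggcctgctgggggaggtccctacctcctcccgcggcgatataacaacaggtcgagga
Cldn4: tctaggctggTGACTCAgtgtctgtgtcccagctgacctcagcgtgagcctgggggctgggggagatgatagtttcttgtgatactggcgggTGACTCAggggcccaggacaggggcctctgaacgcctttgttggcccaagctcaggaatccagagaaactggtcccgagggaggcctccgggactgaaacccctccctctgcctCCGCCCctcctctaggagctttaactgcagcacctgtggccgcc
Lgals3: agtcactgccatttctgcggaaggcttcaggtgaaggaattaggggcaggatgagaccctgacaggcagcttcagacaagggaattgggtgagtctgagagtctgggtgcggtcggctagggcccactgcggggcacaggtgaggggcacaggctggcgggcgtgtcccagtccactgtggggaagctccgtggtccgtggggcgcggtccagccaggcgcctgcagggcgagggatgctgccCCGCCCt

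The Krt7 window held 4 GC boxes and 2 AP-2 matches, an AP-2 match overlapping a GC box, while the Krt8 window held no match and that of Krt18 held 1 AP-2 match. Cldn4 was the only 1 of the 8 with AP-1 letters, at 2 places, beside 1 GC box, and Lgals3 had 1 GC box. GC boxes stood in 6 of the 8 windows and in 32.7% of all 32851 windows of this length. AP-2 letters stood in 2 of 8 (13.7% of all windows), AP-1 letters in 1 of 8 (6.75%), and TEAD and TATA box letters in 0 of 8 (12.6% and 12.4%). These matches are a description of letters and not sites, and the windows of genes with ratios of 1 sign do not share a single pattern.

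The counts over the 10 genes depended on preparation 3. As labelled, 2 of 10 (Cldn6 and Tjp1) had the same sign in all 3 preparations, where 18.9% of named genes did. With preparation 3 turned 7 of 10 did (36.7% of named genes), Krt18, Cdh3 and Lgals3 on the female-higher side and Krt7, Krt8, Cldn4 and Atp1b1 on the male-higher side. On all 6 arrays 0 of 10 kept 1 sign as labelled (1.17% of named genes), and 1 of 10, Krt7, did with preparation 3 turned (6.44%). Nothing is read from these counts, as the genes were chosen with these ratios known. In the limma fit across all 18606 rows no row was called for a sex difference as labelled (0%, 484 rows at an unadjusted p under 0.05). None was called with preparation 3 turned (0%, 1356 rows), so 0 of the 10 were called in either. Xist was not called either (0.93 ± 2.15 as labelled, 1.97 ± 0.37 with preparation 3 turned), nor was Eif2s3y (-0.53 ± 2.13 and -1.81 ± 0.10). The lack of a call therefore does not show that a gene had no sex difference. With preparation 3 turned, the 6-array limma fit (replicate block and dye term) called 39 rows (0.210%) and again 0 of the 10. That fit counted the 2 arrays of a preparation largely as separate replicates (correlation 0.145).

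The dye effect, the mean Cy5 over Cy3 ratio of both orientations, does not depend on the sex labels and was not used to choose the genes. It was larger than the sex ratio for several of them. Lgals3 had a dye effect of 0.72 ± 0.41, Krt19 of 0.71 ± 0.48, Cldn6 of -0.46 ± 0.15, Krt18 of -0.32 ± 0.16 and Cdh3 of 0.25 ± 0.043. These 5 genes had the same sign of Cy5 over Cy3 on all 6 arrays (22.9% of named genes did), so each looked female-higher in 1 orientation and male-higher in the other. Krt7 had one of the smallest dye effects of the set, at -0.060 ± 0.029, along with Krt8 (-0.077 ± 0.088) and Atp1b1 (0.094 ± 0.048). For Cldn4 (-0.19 ± 0.21), Tjp1 (0.14 ± 0.22) and also Krt8 the SD between preparations exceeded the size of the mean.

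**Figure D2:**
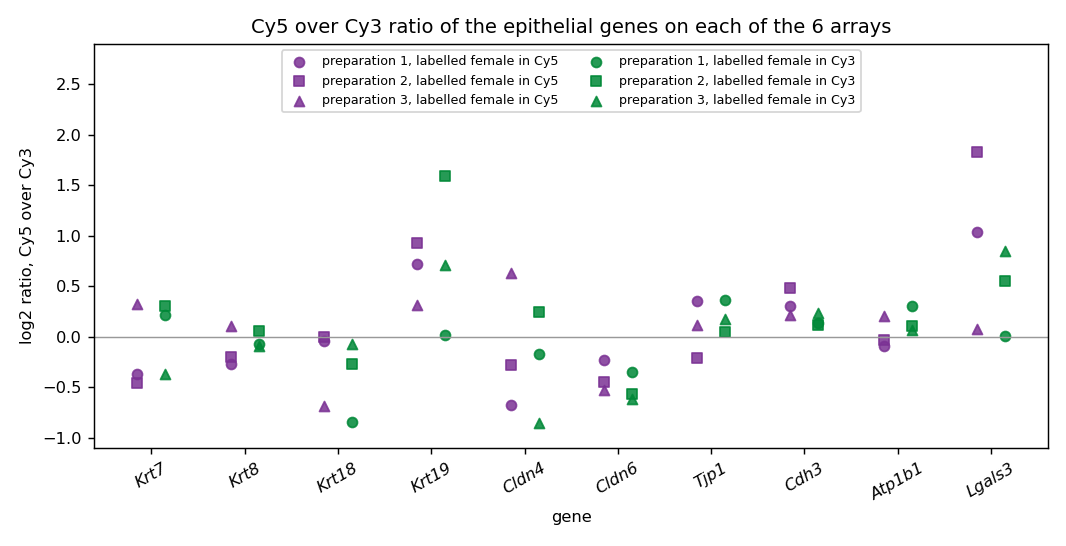
The vertical axis is the log2 ratio of Cy5 over Cy3 on each of the 6 arrays; colours give the labelled dye of female RNA and shapes the preparation. Krt19, Cdh3 and Lgals3 lie above 0 and Krt18 and Cldn6 below 0 on all 6 arrays, while Krt7 changes side with the orientation, in the opposite order for the triangles of preparation 3.

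Against the spread between preparations no dye effect passed the test over all rows. limma called 0 of 18606 rows (0%, 4952 at an unadjusted p under 0.05). Its smallest adjusted p over all rows was 0.0521, and the nearest members were Cldn6 (adjusted p = 0.0933) and Cdh3 (adjusted p = 0.103). In the 6-array fit with replicate block and a sex term (labels kept) limma called 2250 rows (12.1%), among them 2 of the 10 members: Cldn6 (adjusted p = 0.0160) and Cdh3 (adjusted p = 0.0434). In the same fit Krt19 had an adjusted p = 0.0928, Lgals3 one of 0.120 and Krt18 one of 0.202.

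The Cy5 over Cy3 values of the 2 orientations can also be set side by side, with the dye effect left in. With the labels kept, 0 of 10 genes had Cy5 over Cy3 values that did not overlap between the orientations (6.87% of named genes). With preparation 3 turned 7 of 10 did not overlap (19.0% of named genes). A gene without overlap must have 1 sign in all 3 preparations, and these were the same 7 as above. The count restates the sex ratios known when the genes were chosen, so nothing is read from it. Lgals3, for example, lay at 1.04, 1.83 and 0.85 on the arrays where female RNA was then in Cy5, and at 0.0042, 0.55 and 0.072 on the others. Krt19 lay at 0.72, 0.92 and 0.71 against 0.013, 1.59 and 0.31, which overlap through a single array of preparation 2.

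**Figure D3:**
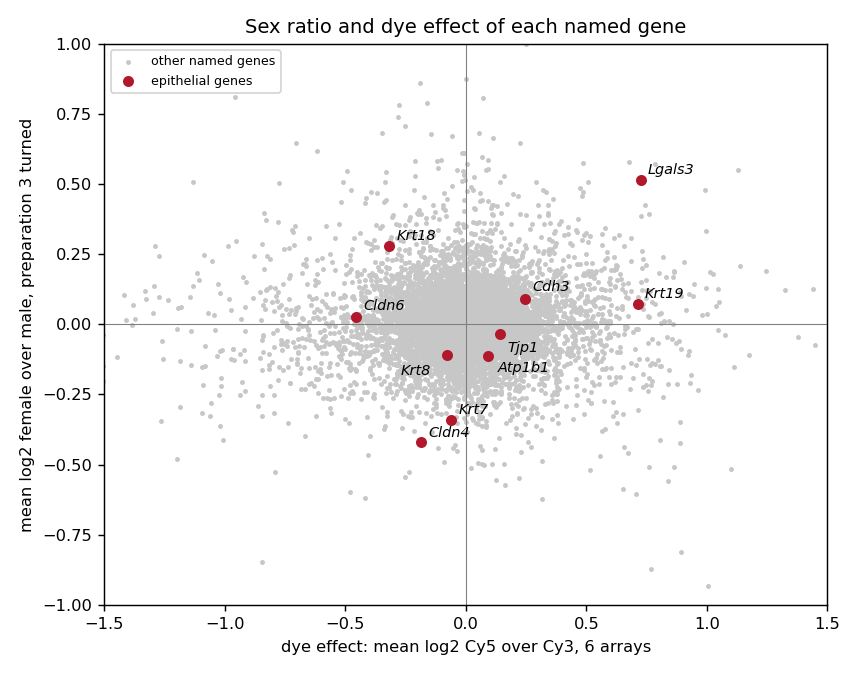
Each grey point is a named gene and each red point 1 of the 10 epithelial genes; the horizontal axis is the dye effect (mean log2 Cy5 over Cy3) and the vertical axis the mean log2 female over male ratio with preparation 3 turned, and 24 named genes lie outside the axes. Lgals3 stands off both axes at 0.72 and 0.52, Krt7 lies below the centre with a dye effect near 0, and Krt19 and Cldn6 are far out on the dye axis with a sex ratio near 0.

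Probes of the same gene did not always give the same ratio. The 2 probes of Krt18 lay together, at 0.31 ± 0.14 and 0.25 ± 0.14 with preparation 3 turned, although their dye effects differed (-0.44 and -0.20). For Krt8 probe 1 stood at -0.12, -0.17 and -0.043 as labelled and probe 2 at -0.078, -0.086 and 0.24, so only probe 2 changed sign in the preparation labelled 3. Atp1b1 rested on probe 1 (-0.25 ± 0.096 with preparation 3 turned), as probe 2 lay at 0.021 ± 0.056. The 3 probes of Tjp1 disagreed in sign, with as-labelled means of 0.12, 0.044 and -0.33, and probe 3 stood at -0.56 in preparation 2 and -0.43 in the preparation labelled 3. Which transcript each probe detects was not analysed here. The other 6 genes, Krt7, Cldn4 and Lgals3 among them, had 1 probe each.

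**Figure D4:**
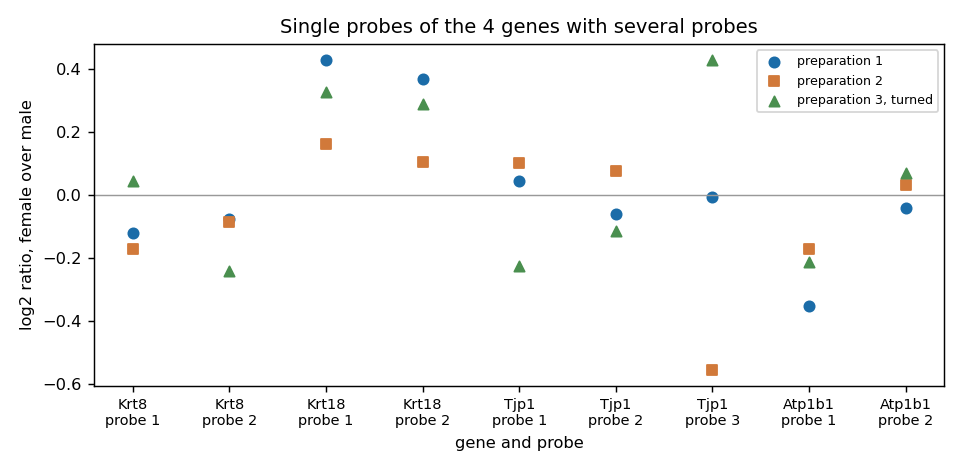
Each column is a probe of a gene with several probes, and the vertical axis is the log2 ratio of female over male RNA in preparations 1, 2 and 3, the last turned in sign. Both Krt18 probes lie above 0 in every preparation, the first Atp1b1 probe lies below 0 and the second near it, and the third Tjp1 probe runs from -0.56 to 0.43.

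Among other genes of the same structures, limma's fit on 3 preparations called 0 for a sex difference, as labelled or with preparation 3 turned, and values are given as a description. Of the other keratins and their desmosome and plakin partners, 10 of 30 were measured and 3 were positive with preparation 3 turned (median -0.041). Over all named genes the median was 0.0048 and 52.5% were positive. Those with the largest size at 1 sign in the preparation means were the plakophilins Pkp2 (-0.22 ± 0.058) and Pkp4 (-0.15 ± 0.047), which link desmosomes to filaments, and the desmosomal cadherin Dsg2 (-0.086 ± 0.063). Single arrays had that sign on 4 of 6 for Pkp2, 4 of 6 for Pkp4 and 5 of 6 for Dsg2. Of the other tight junction and polarity genes 24 of 38 were measured and 13 were positive (median 0.020). Cldn3, another claudin of tight junction strands, stood at 0.40, 0.29 and -0.32 in the 3 preparations and had 1 sign on all 6 arrays with preparation 3 turned (0.34 ± 0.060), the opposite side from Cldn4. Cldn2, a pore-forming claudin, stood at 0.37 ± 0.30 (that sign on 4 of 6 arrays) and Cxadr, an adhesion receptor of tight junctions, at -0.17 ± 0.13 (3 of 6). As labelled these means were 0.12 for Cldn3, 0.12 for Cldn2 and 0.022 for Cxadr.

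Of the other adherens junction genes 14 of 18 were measured, 4 of them positive with preparation 3 turned (median -0.031). Of those with 1 sign in all 3 preparations then, the largest in size were Vcl, the actin linker vinculin (-0.18 ± 0.26), the endothelial cadherin Cdh5 (-0.10 ± 0.12) and Ajuba (-0.060 ± 0.043). Single arrays had that sign on 5 of 6 for Vcl, 3 of 6 for Cdh5 and 5 of 6 for Ajuba. The sodium pump and blastocoel transport list had 11 of 30 measured and 2 positive with preparation 3 turned (median -0.036). In it the pump β subunit Atp1b3 (-0.057 ± 0.0058) had 1 sign on all 6 arrays with preparation 3 turned. Sgk1, a kinase that raises sodium transport (-0.12 ± 0.12), and Fxyd6, a pump regulator (-0.058 ± 0.024), had it on 4 of 6. Among other galectins and partners of galectin 3, 9 of 13 were measured and 6 were positive (median 0.028). Lgals1, galectin 1, lay on the same side as Lgals3 in each preparation (0.15, 0.25 and -0.46; 0.29 ± 0.16 with preparation 3 turned and -0.018 ± 0.38 as labelled) and had a dye effect of 0.016. Pdcd6ip, the ALIX protein of membrane sorting, stood at -0.23 ± 0.096 and Lgalsl at -0.16 ± 0.17, each with that sign on 4 of 6 arrays. In the order of the lists, 3 of 10, 8 of 24, 5 of 14, 3 of 11 and 6 of 9 genes had 1 sign in all 3 preparations with preparation 3 turned. Of all named genes 36.7% did. With the labels kept, the list medians were -0.043 (keratins and desmosomes), 0.012 (tight junctions), 0.0004 (adherens junctions), 0.030 (pump and transport) and 0.0090 (galectins), so those of the adherens and pump lists changed side. The positive genes then numbered 1 of 10, 14 of 24, 7 of 14, 7 of 11 and 5 of 9 in the same order, where 4728 of all 8973 named genes were positive. With preparation 3 turned 52.5% of named genes were positive. As labelled, Pkp2 stood at -0.12 ± 0.24, Pkp4 at -0.054 ± 0.18, Dsg2 at -0.040 ± 0.11, Vcl at -0.14 ± 0.29, Atp1b3 at -0.022 ± 0.065 and Pdcd6ip at -0.014 ± 0.30. Cxadr, Ajuba (0.0020 as labelled), Sgk1 (0.047), Lgals1 and Lgalsl (0.076) changed side with the labels kept.

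Markers of cell types in and around the blastocyst were read beside these genes, and their part in the ratios was not tested. Trophectoderm regulators (16 of 19 measured) had a median of -0.035 with preparation 3 turned, 7 positive (52.5% of named genes were), and a range from -0.22 to 0.20. Inner cell mass markers (14 of 18 measured) had a median of 0.090, 12 positive, and a range from -0.048 to 0.39, the upper end being above the ratio of Krt18. Of these 14, 11 had 1 sign in all 3 preparations with preparation 3 turned, 10 of them higher in female RNA, where 36.7% of named genes had 1 sign. By preparation their medians were 0.10, 0.11 and, in the preparation labelled 3, -0.11. The 6-array fit with replicate block and dye term, preparation 3 turned, called 1 of the 14 inner cell mass markers (0.210% of all rows), and limma's fit on 3 preparations called 0 of them. Primitive endoderm markers (13 of 17) had a median of 0.043 with 9 positive. Among maternal cells that embryo collection may bring, cumulus and granulosa markers (8 of 14) had a median of 0.061 with 6 positive and oviduct epithelium markers (6 of 11) one of -0.040 with 1 positive. With the labels kept the medians were 0.016 for trophectoderm regulators, 0.046 for inner cell mass markers, 0.013 for primitive endoderm, -0.0087 for cumulus and granulosa and -0.023 for oviduct, so trophectoderm regulators (then 10 of 16 positive) and cumulus markers (then 3 of 8) changed side. For the 10 epithelial genes the median was -0.0042 with preparation 3 turned, 5 of them being positive, and 0.0055 with the labels kept.

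**Figure D5:**
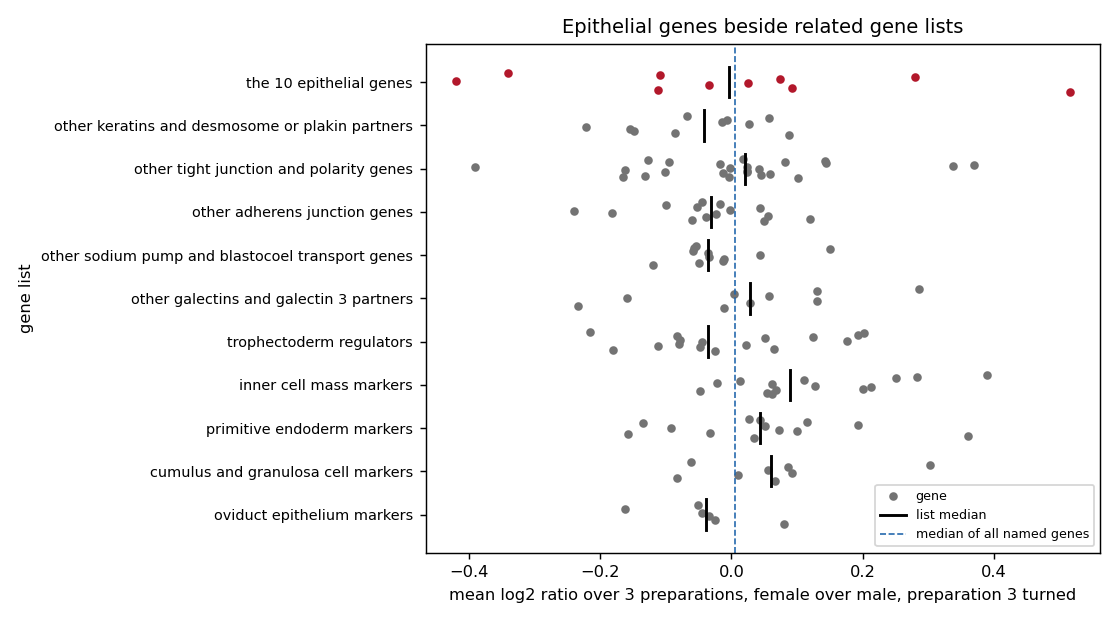
Each point is a gene, each row a list, and the horizontal axis the mean log2 female over male ratio with preparation 3 turned; black bars are list medians and the dashed line the median of all named genes (0.0048). The 10 epithelial genes (red) spread from -0.42 to 0.52 and the trophectoderm regulators from -0.22 to 0.20 (as labelled, not drawn, from -0.11 to 0.26 and from -0.57 to 0.27), and inner cell mass markers lie mostly to the right of 0.

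Genes with the most similar array profile were sought by the Euclidean distance between log2 Cy5 over Cy3 values over the 6 arrays, which does not change with the sex labels. Those nearest to Krt7 were Setd1a (distance 0.22), Phf11d (0.22) and Ccn2 (0.23), where the median distance of named genes from Krt7 was 1.03. The nearest to Krt18 was Ppm1a (0.21), to Krt8 Vps36 and Zbtb22 (0.098 each) and to Cldn4 Anxa3 (0.47), with medians of 1.26, 0.66 and 1.45. For Lgals3 the nearest gene, Angpt1, lay 0.69 away (median 2.38), followed by Cngb1 (0.81) and Emb (0.88), all with a large dye effect of the same sign (0.69, 0.78 and 0.48). Cdh3 lay nearest to Anapc13 (0.16, median 0.87) and Atp1b1 to Zfp598 (0.085, median 0.69). For the 7 genes searched, those with 1 sign in all preparations once preparation 3 was turned, no other member was among the 3 nearest, and the closest pair within the set of 10 was Krt8 and Atp1b1 (0.48).

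Measured neighbours in gene order are given with preparation 3 turned. Krt7, Krt8 and Krt18 lie in the same keratin cluster of chromosome 15, where Krt79, the measured gene between Krt7 and Krt8, stood at -0.0062 ± 0.056 with preparation 3 turned. Krt8 and Krt18 are themselves next to each other among the measured genes and lay on opposite sides of 0, and Eif4b, on the far side of Krt18, stood at 0.14 ± 0.047. Cldn4 is flanked by Eln (0.059 ± 0.028) and Cldn3, described above with the opposite sign. Lgals3 is flanked by Mapk1ip1l (-0.097 ± 0.018) and Dlgap5 (-0.0024 ± 0.058), and Cdh3 by Smpd3 (-0.054 ± 0.12) and the E-cadherin gene Cdh1 (-0.045 ± 0.062). Beside Atp1b1 lay Blzf1 (-0.041 ± 0.15) and Tbx19 (0.072 ± 0.11).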

How the data were processed

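The authors deposited 1 log10 ratio per feature and array (21446 features, 6 arrays, no missing value). Per the series' design text, the scans went through Feature Extraction (version 7.5) and then Luminator; background correction, dye normalization and which program gave the table are not given in the sources used here. Base and direction are not stated: values stop at -2 and 2 and were taken as log10 of Cy5 over Cy3, and array medians lay between 0 and 0.00223 with no further centring. The centring applied by the authors stays unknown, as does signal over background, and the number of arrays limits the precision.

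Values were multiplied by 3.32 (log2). The sign was changed where female RNA was in Cy3, and the 2 arrays of a preparation, which share their extracts, were averaged to 1 replicate. Probes were named by the platform annotation, with symbols updated by gene number (11782 of 11813 probes with 1 symbol matched; 559 had several and 9074 none listed). Genes are means of their probes, giving 18606 rows, 9633 of them unnamed. limma 3.58.1 (R 4.3.3, lmFit and eBayes) tested the mean of 3 preparations against 0, with Benjamini-Hochberg adjustment at 0.05 over all rows. Its p-values measure the spread between these preparations. The dye effect was tested likewise. The fits of the sex ratio were also run on simulated arrays with known ratios, independent noise and no reversed preparation. That run cannot show the error rates in these data. The replicate block fit used duplicateCorrelation, with pairing from the shared RNA of a preparation. The correlation was 0.0293 with labels kept and 0.145 with preparation 3 turned. The 2 arrays of a preparation thus counted largely as separate replicates, and p-values of this fit rest mostly on the spread between arrays. Members, gene lists and the turning of preparation 3 were chosen with earlier results of these data known. Genes named are the members, Xist and Eif2s3y, up to 3 genes per pathway list with 1 sign in all 3 preparations (preparation 3 turned) and the largest size, the 3 nearest profiles, and measured neighbours in gene order. Alternatives were single orientations, left-out preparations, centring, probes with an exact 0 left out (1298), named genes only, probes as rows and the median of a gene's probes.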

Additional observations from a re-analysis of the deposited data

Results flagged for a closer look

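In 5 of the 10 genes the female over male ratio, as labelled, lay on opposite sides of 0 in the 2 dye orientations, on every array. This restates the 1 sign of Cy5 over Cy3 on all 6 arrays given above, which 22.9% of named genes had. The mean of the arrays with female RNA in Cy5 minus that of the arrays with female RNA in Cy3 was 1.45 for Lgals3 (0.98 against -0.47), 1.43 for Krt19 (0.65 against -0.77) and 0.49 for Cdh3 (0.33 against -0.16). It was -0.91 for Cldn6 (-0.40 against 0.51) and -0.64 for Krt18 (-0.24 against 0.39). This difference is 2 times the dye effect, for which limma's fit on 3 preparations called none of the 5. The fit with replicate block and a sex term (labels kept) called Cldn6 and Cdh3.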

How the results depend on the processing

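The count of rows called for a sex difference (0 as labelled) was 0 in most alternatives, among them each left-out preparation, centring, the replicate block with labels kept (0) and the exact-0 filter. These settings keep the preparation 3 labels that Xist and Eif2s3y went against, or rest on 2 preparations. Xist and Eif2s3y were not called in them either, so nothing is read from the shared count of 0. Single orientations leave the dye effect in and gave 628 (female RNA in Cy3, labels kept) and 692 (female RNA in Cy5, preparation 3 turned) of 18606 rows. In the latter 1 member was called, Krt19 (0.79, limma adjusted p = 0.0374), which stood at -0.64 in the other orientation with preparation 3 turned. The other alternatives fitted on genes called 0 members (with probes as rows members were not counted). With preparation 3 turned the count of rows was 39 with the replicate block and dye term and 3 over named genes only. For the dye effect it was 446 with centred arrays, 561 without probes at exact 0 and 2250 with the replicate block (labels kept in its sex term), against 0. The smallest adjusted p of limma was 0.0521 in the main fit, 0.0491 with centring and 0.0419 without probes at exact 0. Rows at an unadjusted p under 0.05 numbered 4952, 4937 and 4901, so the first 2 counts differ from 0 at values close to the threshold. The cause was not tested.

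The number of members with 1 sign in every preparation, 2 as labelled, was 7 with preparation 3 turned. It ran from 2 to 9 with a preparation left out, where fewer preparations need to match, and from 7 to 8 with preparation 3 turned as well. In single orientations, which leave the dye effect in, it was 5 (female in Cy5) and 7 (female in Cy3) as labelled, and 8 in each with preparation 3 turned. The share of all named genes was not counted under the left-out and single-orientation settings, so nothing is read from these counts. Centring left all 10 means on the same side of 0, as did the median of a gene's probes, which moved Tjp1 from -0.054 to -0.18. With preparation 3 turned or left out and both orientations kept, Krt19 (-0.067 to 0.28) and Tjp1 (-0.066 to 0.012) changed sign and the other 8 did not. With the labels kept, leaving out preparation 1 changed the sign of Krt18 (-0.088) and Atp1b1 (0.0009), and leaving out preparation 2 that of Krt7 (0.027), Krt8 (0.0003) and Krt19 (0.078). Single orientations with preparation 3 turned (female in Cy5, then Cy3) gave opposite signs for Lgals3 (1.24 and -0.21), Cdh3 (0.34 and -0.15), Cldn6 (-0.43 and 0.48), Krt18 (-0.038 and 0.60), Krt19 (0.79 and -0.64) and Tjp1 (0.11 and -0.17), and 1 sign for Krt7, Krt8, Cldn4 and Atp1b1.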
